A study of Saccharomyces cerevisiae with 6 samples.

Results

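CID 3528206, a small molecule known here only by its code, was compared with the solvent DMSO in budding yeast, Saccharomyces cerevisiae. The labels give the strain as BY4741, a haploid laboratory strain. The comparison holds 4 of the study's 6 arrays. In them, cells received 20 µM CID 3528206 (2 arrays) or 1% DMSO (2 arrays) for 3 hours. The other 2 arrays hold cells given 200 nM rapamycin for the same 3 hours, a treatment that the labels set beside the compound; here they enter the shared estimate of spread, and their levels are given where the 2 treatments are compared. All cells grew in the rich medium YPD, in 10 mL cultures that began at an OD600 of 0.05 and were treated once it reached 0.2. The labels call the arrays of a group duplicates and do not say that they came from separate cultures, so the spread between these arrays, which may be technical, is all that the p-values measure. They also do not say whether the CID 3528206 and rapamycin cultures held DMSO.

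Levels are deposited log2 values from Affymetrix yeast arrays, on which a difference of 1 is a 2-fold difference in signal. Of 10928 probe sets on the array, 5498 named 1 S. cerevisiae gene, and these gave 5449 genes after the probe set with the highest mean was taken for the 47 genes with several. All 5449 genes were tested. A gene was called where its limma p-value, adjusted by Benjamini-Hochberg across all of these genes, was under 0.05. In what follows ± is the standard error of a log2 difference, and groups are written as CID 3528206 minus DMSO unless another pair is named.

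As background, TOR complex 1 (TORC1) is the kinase through which yeast cells read nitrogen and amino acid supply. While it is active, ribosome synthesis is favoured and the GATA activators Gln3 and Gat1 are kept from their target genes, which serve the uptake and breakdown of poor nitrogen sources, a state called nitrogen catabolite repression. Rapamycin, bound to the protein Fpr1, inhibits this complex. Low TORC1 activity is also known to turn on the retrograde response, in which Rtg1 and Rtg3 raise enzymes that supply 2-oxoglutarate for glutamate synthesis.

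Levels were compared with the labels first. The median level of the tested genes lay between 10.08 and 10.11 in all 6 arrays. Probe sets for the fission yeast S. pombe, which mark unspecific signal here, had a 95th percentile between 4.27 and 4.38, and 98.6% of the genes had a mean above that. The 4 genes deleted in BY4741 (HIS3, LEU2, MET17 and URA3) read between 10.44 and 11.68 in the CID 3528206 arrays and between 11.15 and 12.11 in the DMSO arrays. Genes that define the alpha mating type, which a BY4741 cell does not have, read from 8.59 to 13.14 in the CID 3528206 arrays and from 10.9 to 13.47 in the DMSO arrays. These levels go against the strain label in every array alike, so the strain is called here only by what the label states. The 2 CID 3528206 arrays were less alike than the others: over all genes, replicate 1 minus replicate 2 varied with an SD of 0.267, against 0.122 for rapamycin and 0.123 for DMSO. Over 7 control genes, the mean excess of 3′ over 5′ probe signal, a measure of RNA integrity and of labelling, was 1.69 in CID 3528206 replicate 1 and between 0.910 and 1.14 in the other 5 arrays. For many lists, counts below are therefore also given without CID 3528206 replicate 1. Others carry a range over the 4 fits that each leave out 1 CID 3528206 or DMSO array. Not every list carries such counts. Each of these fits leaves 1 array in a group, which then adds nothing to the estimate of spread. Without a CID 3528206 array, the spread comes from the rapamycin and DMSO arrays alone. Calls in those fits are therefore no check on the spread between CID 3528206 arrays.

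CID 3528206 was followed by a broad change in expression, in which genes for scavenging nitrogen and for carrying acetyl units were among the largest rises, and genes of glycine cleavage, alpha factor and glycogen synthesis were among the largest falls. Of the 5449 genes, 2752 were called (50.5%), with 1424 higher (26.1%) and 1328 lower (24.4%) after CID 3528206. Differences of at least 2-fold were fewer (385 genes, 7.07%) and leaned upward: 273 genes rose (5.01%) and 112 fell (2.06%). In all 2752 the arrays of the 2 groups did not overlap, which also held for 75.8% of all genes. Of the called genes 48.1% differed by less than 0.5 log2 units, and the median difference over all genes was -0.01. Without CID 3528206 replicate 1, 3079 genes were called (29.9% of all genes higher and 26.6% lower), among them 2588 of the 2752 in the same direction. The number called was lower without either DMSO array and higher without either CID 3528206 array. Each of these fits has 2 residual degrees of freedom in place of 3 and leaves 1 array in a group. Without a CID 3528206 array, no spread between CID 3528206 arrays enters the fit. What moved the count was not tested. Of the 385 genes past 2-fold, 350 remained so without CID 3528206 replicate 1 and 351 without replicate 2.

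**Figure D1:**
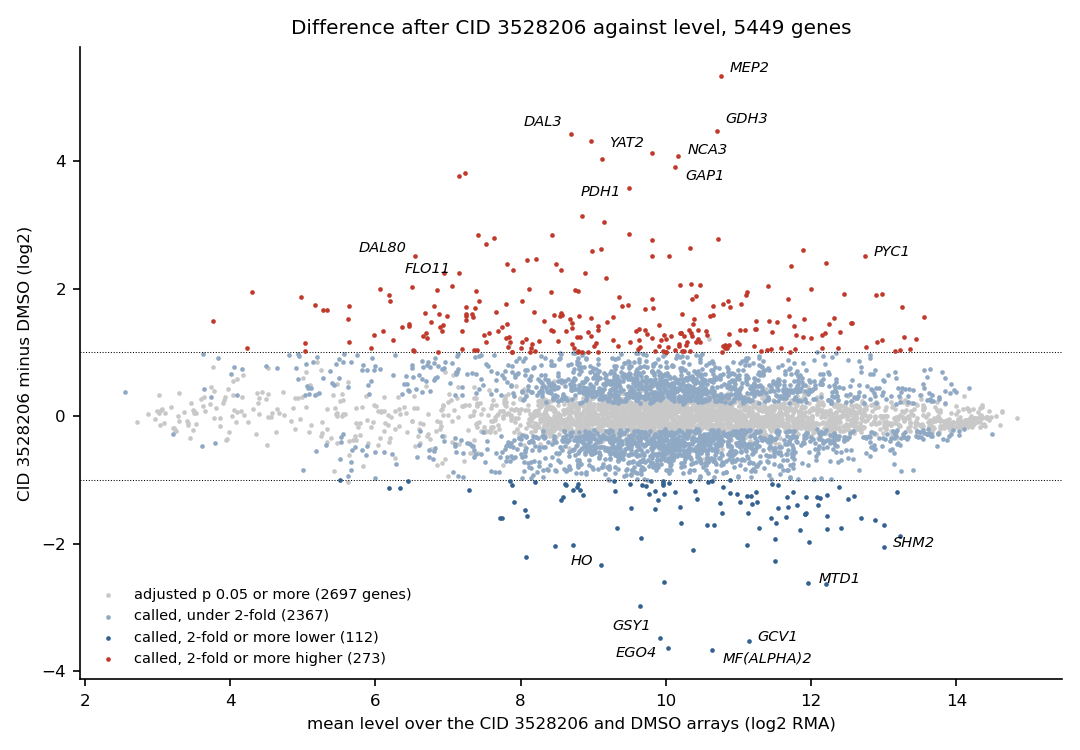
Log2 difference between CID 3528206 and DMSO (vertical axis) against the mean log2 level over the 4 arrays (horizontal axis) for 5449 genes, where red points are the 273 genes that rose at least 2-fold, dark blue points the 112 that fell at least 2-fold, pale blue points were called with smaller differences and grey points were not called. Dotted lines mark 2-fold, and the point furthest from 0 is MEP2 at 5.34.

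Several of the strongest rises were in genes that take up and break down nitrogen sources other than those a cell prefers. MEP2, the high-affinity ammonium permease, had 13.46 and 13.40 in the CID 3528206 arrays, against 8.04 and 8.15 in the DMSO arrays. This made it the largest difference of all genes, at 5.34 ± 0.07 or 40.4-fold (adjusted p = 1.58e-06). GAP1, the general amino acid permease, had 12.16 and 12 after CID 3528206, against 8.18 and 8.17 with DMSO, a difference of 3.90 ± 0.08 (adjusted p = 3.58e-06). DUR3, which imports urea and polyamines, had 11.31 and 10.98 after CID 3528206, against 7.2 and 7.02 with DMSO, and rose by 4.04 ± 0.13 (adjusted p = 1.58e-05). In all of them the arrays of a group lay close together and the groups lay far apart.

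Enzymes for allantoin and a transporter for its relative followed. DAL3, ureidoglycolate lyase of allantoin breakdown, had 10.82 and 10.98 after CID 3528206 and 6.45 and 6.52 with DMSO, a rise of 4.42 ± 0.08 or 21.3-fold (adjusted p = 3.07e-06). DAL5, the allantoate permease, had 11.21 and 10.90 after CID 3528206, against 8.59 and 8.51 with DMSO, and rose by 2.50 ± 0.11 (adjusted p = 4.38e-05). UGA4, the permease for gamma-aminobutyrate, rose by 2.62 ± 0.08 (adjusted p = 1.58e-05), and AGP1, a broad-range amino acid permease, by 2.60 ± 0.06 (adjusted p = 5.49e-06). Over the whole list of 29 measured genes of nitrogen catabolite repression, 26 rose and none fell (89.7%, against 26.1% of all genes), 23 of them at least 2-fold, with a median difference of 1.84 against -0.01 over all genes. Leaving out 1 array in turn gave 26 to 27 higher and 0 to 1 lower. The 3 that were not called were CAR1, GLN1 and PUT2, named here after their values were seen, with differences of 0.28, 0.11 and -0.19; they encode arginase, glutamine synthetase and an enzyme of proline breakdown. Without CID 3528206 replicate 1 the differences of CAR1 and PUT2 were 0.52 and -0.26, and without replicate 2 they were 0.04 and -0.11.

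**Figure D2:**
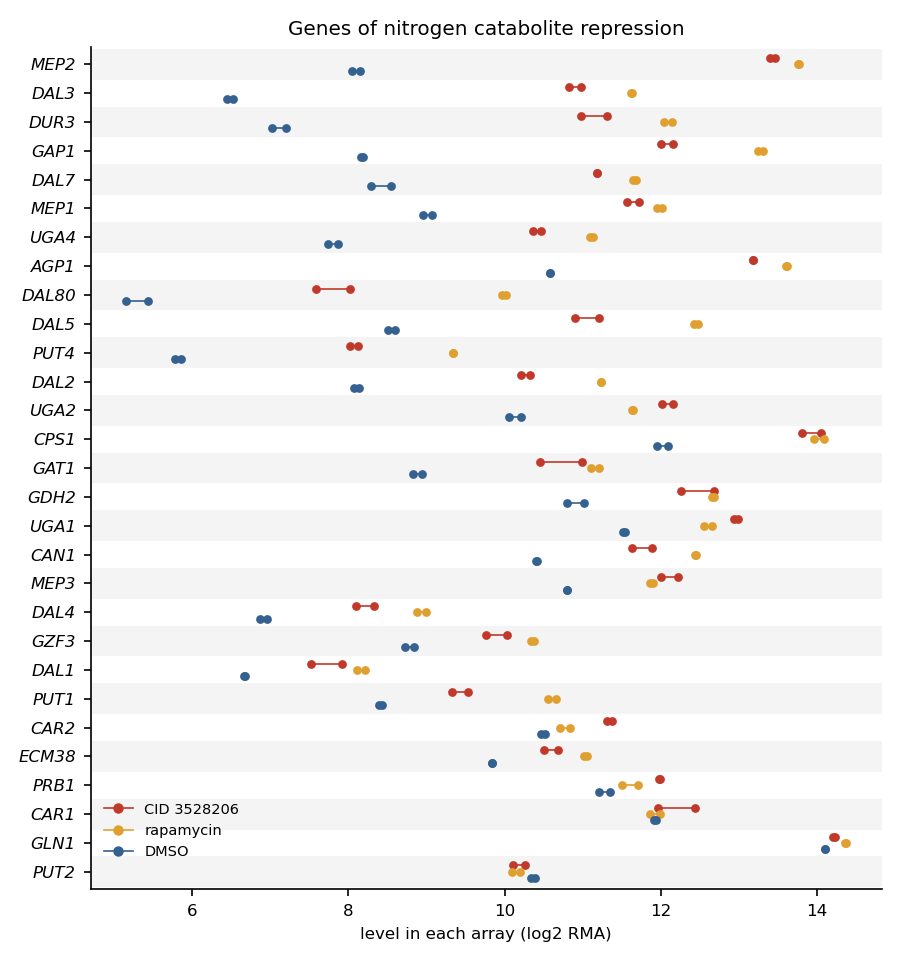
Log2 level of each of the 29 genes of nitrogen catabolite repression in each array (horizontal axis), ordered by the difference between CID 3528206 and DMSO, with joined points for the 2 arrays of a group, red for CID 3528206, orange for rapamycin and blue for DMSO. MEP2 at the top lies at 13.40 and 13.46 after CID 3528206 against 8.04 and 8.15 with DMSO, and at GLN1 and PUT2 the groups lie close together.

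The regulators of these genes moved less evenly. DAL80, a GATA repressor that is itself a target of Gln3, had 7.58 and 8.02 in the CID 3528206 arrays, against 5.16 and 5.43 in the DMSO arrays, and rose by 2.50 ± 0.16 (adjusted p = 0.000146), from DMSO levels near background. GAT1, a GATA activator, had 10.45 and 11 after CID 3528206 and 8.83 and 8.95 with DMSO, a rise of 1.84 ± 0.17 (adjusted p = 0.000546). GLN3, the other activator, rose by 0.75 ± 0.07 (adjusted p = 0.000602). URE2, whose product holds Gln3 in the cytoplasm, had 10.75 and 11.08 after CID 3528206, against 11.05 and 10.98 with DMSO, and was not called (-0.10 ± 0.11, adjusted p = 0.496; 0.0175 without CID 3528206 replicate 2). NPR1, a kinase under TORC1 that stabilises permeases such as Gap1, rose by 1.12 ± 0.08 (adjusted p = 0.000190). TOR1 and TOR2, the kinases themselves, had differences of 0.10 ± 0.10 (adjusted p = 0.438; 0.0214 without CID 3528206 replicate 2) and 0.51 ± 0.13 (adjusted p = 0.0167). The call for TOR2 was lost without DMSO replicate 1 (adjusted p = 0.0647) or replicate 2 (adjusted p = 0.0899). Of 45 genes of the TOR pathway, 21 were higher (46.7%, against 26.1% of all genes) and 4 lower (8.89%, against 24.4%), with a median of 0.21 and with 13 to 25 (13 without DMSO replicate 2) higher and 1 to 7 (7 without CID 3528206 replicate 2, 2 without DMSO replicate 1, 1 without DMSO replicate 2) lower when 1 array at a time was left out. IFH1, a coactivator of ribosomal protein genes, was among the higher ones at 0.87 ± 0.07 (adjusted p = 0.000397).

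Glutamate synthesis and amino acid uptake moved in the same arrays. GDH3, an NADP-dependent glutamate dehydrogenase that joins ammonium to 2-oxoglutarate, had 12.86 and 13.00 after CID 3528206, against 8.48 and 8.46 with DMSO, and rose 22-fold (4.46 ± 0.09, adjusted p = 3.58e-06). Its paralogue GDH1 had 14.33 and 14.32 after CID 3528206 and 12.78 and 12.77 with DMSO, and rose by 1.55 ± 0.06 (adjusted p = 3.18e-05). CPA1, a subunit of carbamoyl phosphate synthase for arginine, rose by 1.46 ± 0.12 (adjusted p = 0.000287), and SER3, the first enzyme of serine synthesis from glycolysis, by 1.36 ± 0.12 (adjusted p = 0.000438). A list of 68 genes drawn up for amino acid synthesis and Gcn4 also holds GDH1 and GDH3. In it 35 were higher (51.5%, against 26.1% of all genes) and 20 lower (29.4%, against 24.4%). The share higher was thus above that of all genes, and the share lower was near it. The median was 0.25, and it was 0.25 and 0.31 without CID 3528206 replicate 1 and 2. Both counts changed when 1 array was left out. GCN4, the activator, differed by 0.21 ± 0.06 (adjusted p = 0.0329), a call lost without DMSO replicate 1 (0.175) or replicate 2 (0.157).

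Permeases split by kind. Of 23 amino acid permeases 14 were higher (60.9%, against 26.1% of all genes), 9 of them at least 2-fold, and 4 were lower, with a median of 0.51. DIP5, which imports glutamate and aspartate, had 13.47 and 13.34 after CID 3528206 and 10.96 and 11.07 with DMSO, a rise of 2.39 ± 0.08 (adjusted p = 1.76e-05). The 4 lower ones, named here after their values were seen, were MUP3 (-1.67), MMP1 (-1.09), MUP1 (-0.66) and BAP2 (-0.54), carriers of methionine, S-methylmethionine and branched-chain amino acids. PTR2, the importer of di- and tripeptides, rose by 1.16 ± 0.10 (adjusted p = 0.000354). CPS1, a carboxypeptidase of the vacuole, had 13.82 and 14.05 after CID 3528206 against 12.09 and 11.95 with DMSO, and rose by 1.91 ± 0.11 (adjusted p = 9.51e-05). Of 17 vacuolar hydrolases 9 were higher (52.9%, against 26.1% of all genes) and 2 lower (11.8%, against 24.4%), with a median of 0.42. GAP1, AGP1 and UGA4 of the permeases and CPS1 of the hydrolases, among others, are also in the list of nitrogen catabolite repression. These lists are therefore not separate observations.

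All 5 measured genes of the carnitine shuttle, which carries acetyl units into mitochondria, rose at least 2-fold (against 5.01% of all genes). CRC1, the mitochondrial carrier of acetylcarnitine, had 10.96 and 11.29 in the CID 3528206 arrays, against 6.77 and 6.85 in the DMSO arrays, and rose 19.9-fold (4.31 ± 0.11, adjusted p = 9.05e-06). YAT2, a carnitine acetyltransferase, had 11.87 and 11.88 after CID 3528206 and 7.72 and 7.77 with DMSO, a rise of 4.13 ± 0.07 (adjusted p = 3.07e-06). YAT1, another acetyltransferase, had 10.74 and 10.62 after CID 3528206, against 7.52 and 7.74 with DMSO, and rose by 3.05 ± 0.10 (adjusted p = 1.58e-05). The replicates of these genes lay close together beside the distance between the groups. CAT2, the acetyltransferase of mitochondria and peroxisomes, and AGP2, a plasma membrane carrier of carnitine, rose by 1.73 ± 0.07 and 1.19 ± 0.10 (adjusted p = 3.00e-05 and 0.000373).

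Genes of the glyoxylate cycle and of gluconeogenesis, which yeast uses to grow on acetate, ethanol or lactate and represses on glucose, also rose in most of their members. Of 25 measured genes 20 were higher (80.0%, against 26.1% of all genes), 14 of them at least 2-fold, and 3 were lower, with a median difference of 1.17. ADY2, an acetate transporter, had 8.73 and 8.94 after CID 3528206, against 5.92 and 6.08 with DMSO, and rose by 2.83 ± 0.12 (adjusted p = 3.53e-05). SIP4, an activator of gluconeogenic genes, had 8.83 and 9.24 after CID 3528206 and 6.58 and 6.92 with DMSO, a rise of 2.29 ± 0.16 (adjusted p = 0.000202). JEN1, the lactate permease, rose by 1.99 ± 0.10 (adjusted p = 6.32e-05). With 1 array left out in turn, 15 to 20 of the list were higher and 1 to 3 lower.

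Among targets of the retrograde response, PYC1, pyruvate carboxylase, had 14.05 and 13.95 after CID 3528206 and 11.61 and 11.37 with DMSO, a rise of 2.51 ± 0.10 (adjusted p = 3.07e-05). CIT2, the peroxisomal citrate synthase and the usual reporter of this response, had 14.09 and 14.12 after CID 3528206, against 12.42 and 12.35 with DMSO, and rose by 1.72 ± 0.07 (adjusted p = 3.00e-05). DLD3, a cytosolic D-lactate dehydrogenase, had 13.86 and 13.82 after CID 3528206, against 12 and 11.87 with DMSO, a difference of 1.91 ± 0.08 (adjusted p = 3.46e-05). The replicates of these 3 genes lay close together, and the groups were well apart. PDH1 and CIT3, whose products act on methylcitrate in the use of propionate, rose by 3.58 ± 0.10 and 2.79 ± 0.12 (adjusted p = 9.05e-06 and 3.42e-05). Of the 16 genes of the list 10 were higher (62.5%, against 26.1% of all genes) and 1 lower, with a median of 0.37; without 1 array in turn, 7 to 11 were higher and 0 to 2 lower.

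The tricarboxylic acid cycle had 14 of 23 genes higher (60.9%, against 26.1% of all genes) and none lower (median 0.37). Without DMSO replicate 1 or 2, 9 or 8 were higher. CIT1, mitochondrial citrate synthase, rose by 1.04 ± 0.07 (adjusted p = 0.000175) and IDP1, a mitochondrial NADP-dependent isocitrate dehydrogenase, by 1.20 ± 0.06 (adjusted p = 8.01e-05). The respiratory chain and ATP synthase had 17 of 43 higher (39.5%, against 26.1% of all genes) and 6 lower, with a median of 0.20. Without 1 array in turn 8 to 26 (26 without CID 3528206 replicate 1, 8 without DMSO replicate 1, 8 without DMSO replicate 2) were higher and 3 to 8 (3 without DMSO replicate 1, 3 without DMSO replicate 2) lower. NDE2, an external NADH dehydrogenase and the only member past 2-fold, had 8.42 and 8.23 after CID 3528206 and 6.55 and 6.50 with DMSO, a rise of 1.80 ± 0.09 (adjusted p = 7.23e-05). SHH3, a paralogue of the succinate dehydrogenase subunit gene SDH3, had 8.82 and 9.25 after CID 3528206, against 5.31 and 5.22 with DMSO, and rose 13.7-fold (adjusted p = 6.03e-05). Its DMSO level is near the 99th percentile of S. pombe probe sets (at most 5.24), so this fold change rests on a DMSO signal near background. In peroxisomes, POX1 (acyl-CoA oxidase) and POT1 (3-ketoacyl-CoA thiolase), both of fatty acid oxidation, rose by 2.0 ± 0.09 and 1.67 ± 0.10 (adjusted p = 3.68e-05 and 0.000131), from DMSO levels of 5.02 and 5.11 and of 4.49 and 4.52. Over the peroxisomal list the shares called were near those of all genes. Of 44 genes 14 were higher (31.8%, against 26.1% of all genes) and 8 lower (18.2%, against 24.4%). The median was 0.03, and it was -0.04 and 0.08 without CID 3528206 replicate 1 and 2. The number lower changed when 1 array was left out.

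**Figure D3:**
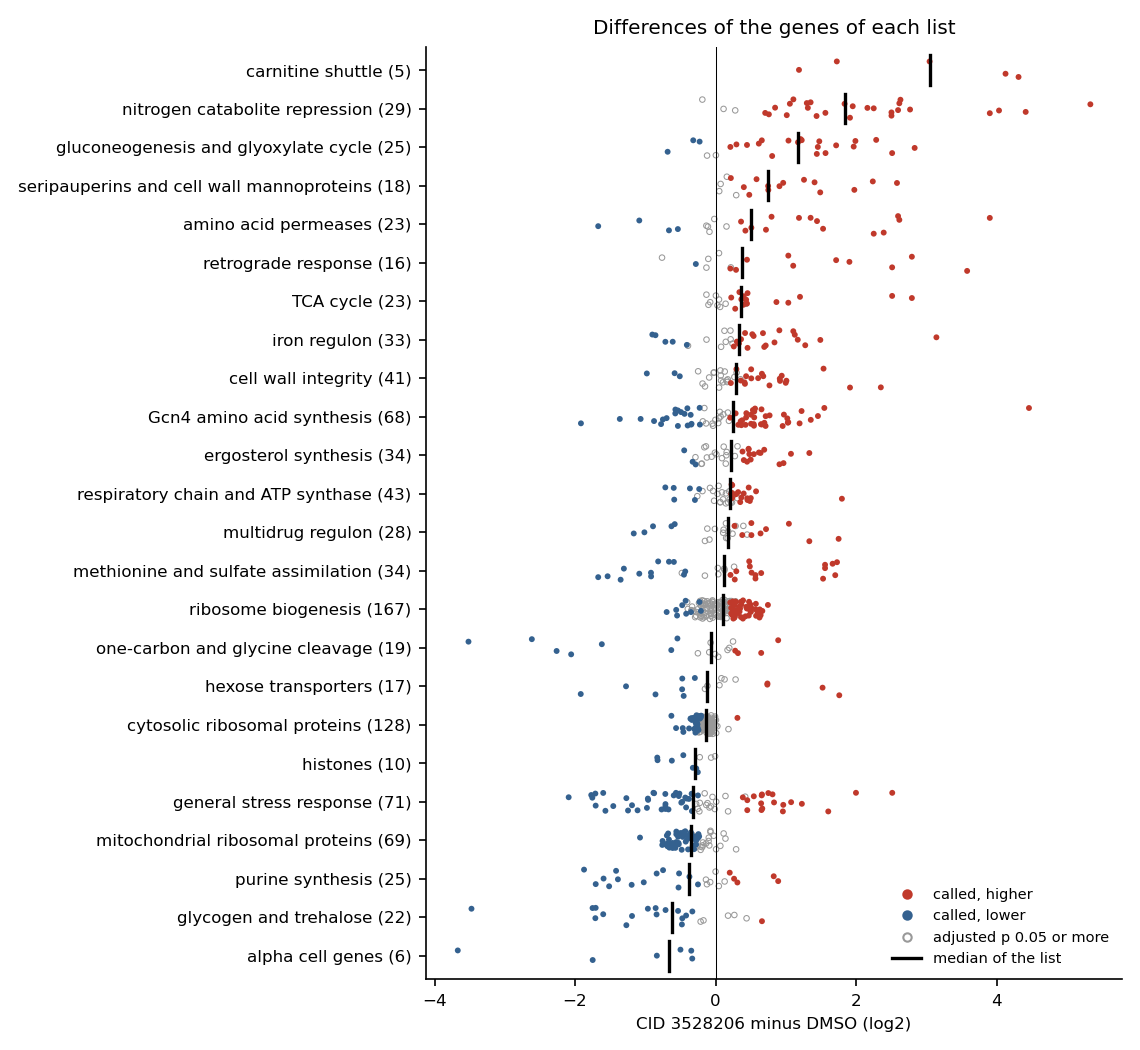
Log2 difference between CID 3528206 and DMSO (horizontal axis) for each measured gene of 24 lists, ordered by the median of the list (black bar), with the number of measured genes in brackets, where red points were called higher, blue points called lower and open grey points not called. The carnitine shuttle (median 3.05) and nitrogen catabolite repression (1.84) lie at the top and the alpha cell genes (-0.67) at the bottom, and most lists hold called genes on both sides of 0.

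Storage carbohydrate genes fell. GSY1, a glycogen synthase, had 8.49 and 7.87 after CID 3528206, against 11.69 and 11.61 with DMSO, and was 11.1-fold lower (-3.47 ± 0.19, adjusted p = 9.51e-05). GLG1, glycogenin, which primes glycogen, had 8.60 and 8.30 after CID 3528206 and 10.15 and 10.25 with DMSO, a difference of -1.75 ± 0.11 (adjusted p = 0.000153). GPH1, glycogen phosphorylase, which breaks glycogen down, had 10.03 and 9.41 after CID 3528206, against 11.47 and 11.37 with DMSO (-1.71 ± 0.19, adjusted p = 0.00100). Enzymes that make and that break down glycogen thus both read lower, and CID 3528206 replicate 2 lay below replicate 1 in GSY1 and GPH1. PGM2, phosphoglucomutase, fell by 1.71 ± 0.15 (adjusted p = 0.000392). Of 22 genes of glycogen and trehalose 16 fell (72.7%, against 24.4% of all genes), 7 at least 2-fold, and 1 rose, with a median of -0.62. The higher one was NTH1, neutral trehalase, at 0.66, named here after its value was seen.

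Stress genes leaned the same way. GPD1, glycerol-3-phosphate dehydrogenase of the osmotic response, had 11.39 and 11.28 after CID 3528206, against 13.13 and 13.08 with DMSO, and fell by 1.77 ± 0.08 (adjusted p = 3.68e-05). HSP30, a stress protein of the plasma membrane, had 11.82 and 11.26 after CID 3528206 and 13.32 and 13.26 with DMSO, and fell by 1.75 ± 0.19 (adjusted p = 0.000961). CTT1, cytosolic catalase and a common reporter of the activators Msn2 and Msn4, fell by 0.88 ± 0.11 (adjusted p = 0.00149). HSP12, another reporter of these activators, had 10.43 and 10.98 after CID 3528206, against 10.95 and 10.63 with DMSO, and was not called (-0.09 ± 0.22, adjusted p = 0.756). Its groups overlapped. SSA4 and HSP104, heat shock chaperones, were not called either (-0.13 ± 0.07 and -0.28 ± 0.11, adjusted p = 0.156 and 0.0870), but HSP104 was called lower without CID 3528206 replicate 1 (adjusted p = 0.00225). HSP26, a small heat shock protein, went the other way at 0.65 ± 0.13 (adjusted p = 0.00766), a call lost without DMSO replicate 2 (0.0508). MSN4 rose by 0.83 ± 0.07 (adjusted p = 0.000434), and MSN2 was not called (0.18 ± 0.11, adjusted p = 0.229), though it was without CID 3528206 replicate 2 (0.00703). Of 71 genes of the general stress response 37 fell (52.1%, against 24.4% of all genes), 12 at least 2-fold. Another 19 rose (26.8%), a share near the 26.1% of all genes. The median was -0.33, and it was -0.39 and -0.30 without CID 3528206 replicate 1 and 2. The counts changed when 1 array was left out. Some genes, GPH1 and PGM2 among them, are also in the list of glycogen and trehalose, so the 2 lists are not separate observations.

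Glucose transporters changed member by member. HXT7, read with a probe set shared with its near copy HXT6, had 10.55 and 10.53 after CID 3528206, against 12.49 and 12.43 with DMSO, and fell by 1.92 ± 0.07 (adjusted p = 1.89e-05). HXT4, a high-affinity transporter, had 11.45 and 11.51 after CID 3528206 and 12.76 and 12.76 with DMSO, and fell by 1.27 ± 0.07 (adjusted p = 7.23e-05). HXT1, the low-affinity transporter of high glucose, fell by 0.85 ± 0.08 (adjusted p = 0.000464). Over 17 hexose transporter and sensor genes 4 were higher (23.5%, against 26.1% of all genes) and 7 lower (41.2%, against 24.4%), with a median of -0.12. The 4 higher ones, named here after their values were seen, were HXT5 (1.76), RGT2 (1.52), HXT3 (0.74) and HXT10. HXT10 read 4.69 and 4.39 after CID 3528206 and 3.67 and 3.92 with DMSO, where it lay below the 95th percentile of S. pombe probe sets, so no size is given for it. Without 1 array in turn 4 to 5 were higher and 4 to 7 (4 without DMSO replicate 2) lower. HXK1, a hexokinase, and ALD6, which makes acetate in the cytosol, fell by 1.11 ± 0.07 and 1.27 ± 0.14 (adjusted p = 0.000165 and 0.000944).

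One-carbon metabolism held some of the deepest falls. GCV1, the T subunit of the glycine cleavage system, had 9.33 and 9.44 in the CID 3528206 arrays, against 12.93 and 12.88 in the DMSO arrays, and fell 11.4-fold (-3.52 ± 0.10, adjusted p = 9.28e-06). MTD1, a methylenetetrahydrofolate dehydrogenase, had 10.57 and 10.74 after CID 3528206 and 13.22 and 13.32 with DMSO, and fell by 2.61 ± 0.08 (adjusted p = 1.58e-05). SHM2, the cytosolic serine hydroxymethyltransferase, had 11.94 and 12.02 after CID 3528206, against 14.06 and 14.02 with DMSO, and fell by 2.06 ± 0.08 (adjusted p = 3.07e-05). GCV2, the P subunit of glycine cleavage, fell by 2.26 ± 0.15 (adjusted p = 0.000174). Over the list 7 of 19 genes were lower (36.8%, against 24.4% of all genes) and 4 higher (21.1%, against 26.1%), with a median of -0.07. Without 1 array in turn 1 to 6 (1 without DMSO replicate 1, 2 without DMSO replicate 2) were higher and 7 to 8 lower.

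Purine synthesis, which draws on one-carbon units and is driven by Bas1 together with the glycine cleavage genes, fell in most of its steps. ADE17, of the last steps to inosine monophosphate, had 12.52 and 12.06 after CID 3528206, against 14.22 and 14.10 with DMSO, and fell by 1.87 ± 0.15 (adjusted p = 0.000332). ADE1, which makes an earlier intermediate, had 12.19 and 12.11 after CID 3528206 and 13.84 and 13.87 with DMSO, and fell by 1.71 ± 0.08 (adjusted p = 5.46e-05). ADE2 and ADE8, of earlier steps, fell by 1.59 ± 0.10 and 1.51 ± 0.10 (adjusted p = 0.000137 and 0.000174). Of 25 purine genes 14 fell (56.0%, against 24.4% of all genes), 8 at least 2-fold, and 5 rose, with a median of -0.37 and with 12 to 15 lower without 1 array in turn. Pyrimidine synthesis had 7 of 17 lower (41.2%) and 4 higher (23.5%), and without 1 array in turn 3 to 7 (7 without CID 3528206 replicate 1) were higher. FUR1, uracil phosphoribosyltransferase of the salvage pathway, fell by 1.26 ± 0.11 (adjusted p = 0.000421).

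Sulfur genes were split. MET30, the F-box protein that restrains the activator Met4, had 11.54 and 11.48 after CID 3528206, against 9.71 and 9.86 with DMSO, and rose by 1.73 ± 0.08 (adjusted p = 4.80e-05). MET28, a partner of Met4, had 7.83 and 8.37 after CID 3528206 and 6.38 and 6.41 with DMSO, and rose by 1.70 ± 0.18 (adjusted p = 0.000832). SUL1, a sulfate permease, rose by 1.67 ± 0.06 (adjusted p = 3.00e-05), from DMSO levels of 4.44 and 4.45 that lie close to the 95th percentile of S. pombe probe sets. Of 34 genes 15 were higher (44.1%, against 26.1% of all genes) and 12 lower (35.3%, against 24.4%), with a median of 0.13. The number higher was 7 without DMSO replicate 1, 11 without replicate 2, and 15 or 16 without a CID 3528206 array.

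Genes for making ribosomes changed little in size. No cytosolic ribosomal protein gene differed 2-fold. Of 128 such genes 31 were called lower (24.2%, against 24.4% of all genes) and 1 higher, with a median of -0.14. RPS26B, of the small subunit, had 13.49 and 13.51 after CID 3528206, against 13.94 and 14.00 with DMSO, and fell by 0.47 ± 0.07 (adjusted p = 0.00270). RPS14B had 11.98 and 12.28 after CID 3528206 and 12.62 and 12.76 with DMSO (-0.56 ± 0.12, adjusted p = 0.0108), a call lost without DMSO replicate 2 (0.0726). The share lower was close to that of all genes, and the count depended on single arrays, with a range over the 4 fits of 2 to 61 (20 without CID 3528206 replicate 1, 61 without CID 3528206 replicate 2, 3 without DMSO replicate 1, 2 without DMSO replicate 2).

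The counts of ribosome biogenesis genes depended on single arrays of both groups. With all arrays, 51 of 167 were higher (30.5%, against 26.1% of all genes) and 9 lower (5.39%, against 24.4%), with a median of 0.10. Without CID 3528206 replicate 1, the array with the high 3′ excess, 74 were higher and 7 lower, with a median of 0.21. Without CID 3528206 replicate 2, 46 were higher and 50 lower. Without DMSO replicate 1, 15 were higher and 4 lower, and without DMSO replicate 2, 24 were higher and 2 lower. The part of RNA integrity in this was not tested. RRP12, a factor for export of pre-ribosomes, was the gene with the largest rise among those called, with 12.15 and 11.97 after CID 3528206 and 11.29 and 11.34 with DMSO (0.75 ± 0.08, adjusted p = 0.00103). NSR1, a nucleolar protein, and NOP1, the rRNA methyltransferase fibrillarin, had differences of 0.31 ± 0.09 and -0.28 ± 0.10 (adjusted p = 0.0260 and 0.0539). The call for NSR1 was lost without DMSO replicate 1 (0.168) or 2 (0.0503), and NOP1 was not called but was lower without CID 3528206 replicate 2 (0.00635).

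Most mitochondrial ribosomal protein genes fell. Of 69 measured, 48 were lower (69.6%, against 24.4% of all genes) and none higher, with a median of -0.35. MRPL19, of the large mitochondrial subunit, had 9.03 and 9.22 after CID 3528206, against 10.20 and 10.21 with DMSO, and fell by 1.08 ± 0.08 (adjusted p = 0.000288). It was the only one past 2-fold. Without CID 3528206 replicate 1, 46 were lower and 1 higher, and over the 4 fits 25 to 59 (25 without DMSO replicate 2) were lower. Of 37 translation factor genes 13 were lower (35.1%, against 24.4% of all genes) and 3 higher (8.11%, against 26.1%). Their median was -0.11, and it was -0.09 and -0.20 without CID 3528206 replicate 1 and 2. The number lower changed widely when 1 array was left out, so the share lower is known only roughly. SUI2, the alpha subunit of eIF2, fell by 0.42 ± 0.06 (adjusted p = 0.00292).

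Iron genes rose in part. HMX1, heme oxygenase, which frees iron from heme, had 10.18 and 10.64 after CID 3528206, against 7.34 and 7.19 with DMSO, and rose 8.84-fold (3.14 ± 0.15, adjusted p = 5.99e-05). ARN1, a siderophore transporter, had 12.09 and 11.90 after CID 3528206 and 10.57 and 10.43 with DMSO, a rise of 1.49 ± 0.09 (adjusted p = 0.000123). ARN2, a transporter of the same family, rose by 1.28 ± 0.11 (adjusted p = 0.000362), and AFT1, the activator of the iron regulon, by 1.17 ± 0.07 (adjusted p = 0.000118). FIT2, a wall mannoprotein that helps to retain siderophore iron, had 13.60 and 13.73 after CID 3528206, against 13.35 and 13.33 with DMSO (0.33 ± 0.08, adjusted p = 0.0136), and its call was lost without DMSO replicate 1 (0.0724) or 2 (0.0922). Of 33 iron genes 20 were higher (60.6%, against 26.1% of all genes), 6 at least 2-fold, and 5 lower (15.2%, against 24.4%). The median was 0.33, and it was 0.40 and 0.32 without CID 3528206 replicate 1 and 2. The number higher changed when 1 array was left out. ZRT1, the high-affinity zinc transporter, and ZAP1, its activator, rose by 1.54 ± 0.11 and 1.34 ± 0.12 (adjusted p = 0.000179 and 0.000468).

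Single drug efflux genes rose, while the shares called over the multidrug regulon list were near those of all genes. PDR10, an ABC transporter of the pleiotropic drug resistance family, had 12.05 and 11.77 after CID 3528206, against 10.18 and 10.13 with DMSO, and rose by 1.75 ± 0.10 (adjusted p = 0.000105). AUS1, which imports sterols, and TPO1, which exports polyamines, rose by 1.34 ± 0.18 and 1.04 ± 0.07 (adjusted p = 0.00184 and 0.000156). PDR5, the main drug pump of the family, had 12.79 and 12.62 after CID 3528206 and 12.58 and 12.48 with DMSO, and was not called (0.18 ± 0.08, adjusted p = 0.118; 0.0190 without CID 3528206 replicate 2). PDR1, the activator of the family, rose by 0.72 ± 0.09 (adjusted p = 0.00152). The pumps SNQ2 and YOR1 and the activator PDR3 had differences of 0.38 ± 0.10, 0.51 ± 0.14 and 0.51 ± 0.12 (adjusted p = 0.0181, 0.0252 and 0.0129), and each of these calls was lost without DMSO replicate 2 (adjusted p = 0.118, 0.135 and 0.0865), those of SNQ2 and YOR1 also without replicate 1 (0.0556 and 0.0598). Beside pumps, the multidrug regulon list holds activators such as PDR1, the sterol importer AUS1 and the hexose transporter HXT9. Of its 28 genes 9 were higher (32.1%, against 26.1% of all genes) and 5 lower (17.9%, against 24.4%). The median was 0.18, and it was 0.11 and 0.24 without CID 3528206 replicate 1 and 2. The number higher changed when 1 array was left out. In sterol synthesis and storage 15 of 34 were higher (44.1%) and 3 lower (median 0.22). Without 1 array in turn 1 to 7 (5 without CID 3528206 replicate 1, 7 without CID 3528206 replicate 2, 1 without DMSO replicate 1, 1 without DMSO replicate 2) were lower. In this list HES1, an oxysterol-binding protein, and ARE1, a sterol acyltransferase, rose by 1.07 ± 0.15 and 0.97 ± 0.07 (adjusted p = 0.00200 and 0.000195).

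The cell surface changed too. NCA3, of the SUN family of wall proteins, had 12.16 and 12.24 after CID 3528206, against 8.04 and 8.20 with DMSO, and rose 17.0-fold (4.08 ± 0.08, adjusted p = 3.58e-06). The other SUN genes moved far less: UTH1 rose by 0.69 ± 0.07 (adjusted p = 0.000546), SIM1 was not called (0.15 ± 0.07, adjusted p = 0.111) and SUN4 differed by -0.32 ± 0.09 (adjusted p = 0.0219), a call lost without either DMSO array (0.0963 and 0.118). FLO11, the flocculin of filamentous growth, had 8.62 and 7.93 after CID 3528206, against 6.21 and 5.86 with DMSO, and rose by 2.24 ± 0.24 (adjusted p = 0.000815). PAU24, a seripauperin read with a probe set that can bind its close relatives, had 10.11 and 10.43 after CID 3528206 and 7.69 and 7.69 with DMSO, a rise of 2.58 ± 0.13 (adjusted p = 6.41e-05). Of 18 seripauperins, flocculins and related wall mannoproteins 14 were higher and none lower (77.8%, against 26.1%), with a median of 0.75; probe sets that can bind close relatives read several of them, so they do not count as separate measurements. Of 41 genes of the cell wall integrity pathway 20 were higher (48.8%) and 3 lower (median 0.30), led by PIR3, a wall protein (2.35 ± 0.17, adjusted p = 0.000190), and GSC2, a glucan synthase (1.91 ± 0.09, adjusted p = 5.67e-05).

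Of the mating-type and cell-cycle genes, MF(ALPHA)2 and HO were among the 15 largest falls. In these bulk samples fewer cells of a type or stage cannot be told apart from less RNA per cell. MF(ALPHA)2, which encodes alpha factor, had 9.01 and 8.59 after CID 3528206, against 12.36 and 12.57 with DMSO, and fell 12.7-fold, the deepest fall of all genes (-3.67 ± 0.15, adjusted p = 3.21e-05). STE3, the receptor for a factor, had 10.50 and 10.31 after CID 3528206 and 12.13 and 12.17 with DMSO, and fell by 1.75 ± 0.09 (adjusted p = 6.41e-05). MF(ALPHA)1, the main alpha factor gene, differed only by -0.35 ± 0.09 (adjusted p = 0.0182), a call lost without DMSO replicate 1 (0.0535) or 2 (0.127). All 6 measured alpha cell genes were lower, 3 to 6 (3 without DMSO replicate 2) of them without 1 array in turn, against 24.4% of all genes in the full fit. Of 7 a cell genes 5 were higher (71.4%, against 26.1%), 3 to 6 (3 without DMSO replicate 2) without 1 array in turn, with a median of 0.45 that was 0.16 after quantile normalization. MFA2, an a factor gene, rose by 1.03 ± 0.15 (adjusted p = 0.00244) at levels of 6.97 and 7.08 after CID 3528206 and 6.16 and 5.83 with DMSO. HO, the mating-type switching endonuclease, had 7.91 and 7.99 after CID 3528206, against 10.30 and 10.25 with DMSO, and fell by 2.33 ± 0.07 (adjusted p = 1.58e-05). Of 28 genes listed for M/G1, HO among them, 6 were higher (21.4%, against 26.1% of all genes) and 8 lower (28.6%, against 24.4%).

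Several cyclin and inhibitor genes fell. CLB6, an S-phase cyclin, had 7.2 and 7.27 after CID 3528206 and 8.42 and 8.74 with DMSO, and fell by 1.35 ± 0.11 (adjusted p = 0.000368). SIC1, the inhibitor of S-phase cyclins, fell by 0.80 ± 0.12 (adjusted p = 0.00309), and SWI5, an activator of late mitosis and early G1, by 0.85 ± 0.06 (adjusted p = 0.000219). CLN2, a G1 cyclin, fell by 0.40 ± 0.08 (adjusted p = 0.00858; 0.0695 without DMSO replicate 2), and CLN3, the upstream G1 cyclin, was not called (-0.11 ± 0.22, adjusted p = 0.695). Of 59 genes of G1/S and DNA replication 10 were higher (16.9%, against 26.1% of all genes) and 16 lower (27.1%, against 24.4%). Without 1 array in turn 5 to 12 (5 without DMSO replicate 1, 5 without DMSO replicate 2) were higher and 8 to 22 (8 without DMSO replicate 2) lower. Of 37 genes of G2/M and cytokinesis 6 were higher (16.2%) and 12 lower (32.4%). For these, leaving out 1 array gave 1 to 7 (1 without DMSO replicate 1, 1 without DMSO replicate 2) higher and 5 to 13 (5 without DMSO replicate 2) lower. Of 10 histone genes 7 were lower (70.0%, against 24.4% of all genes) and none higher (median -0.30), and 4 to 8 (4 without DMSO replicate 1, 4 without DMSO replicate 2) were lower without 1 array in turn. HTZ1 and HHO1, the H2A variant and the linker histone, each fell by 0.83 ± 0.07 (adjusted p = 0.000337 and 0.000538).

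Autophagy and protein quality control showed no common direction. ATG8, the ubiquitin-like protein of the autophagosome and a common reporter of TORC1 inhibition, had 10.55 and 10.93 after CID 3528206, against 10.85 and 10.86 with DMSO, and was not called (-0.12 ± 0.12, adjusted p = 0.458). It was called lower without CID 3528206 replicate 2 (0.00670). APE1, the aminopeptidase carried to the vacuole by this route, was not called (-0.01 ± 0.10, adjusted p = 0.921). ATG11 and ATG22, a scaffold of selective autophagy and a vacuolar amino acid exporter, rose by 1.19 ± 0.11 and 1.12 ± 0.09 (adjusted p = 0.000575 and 0.000291), and AMS1, a vacuolar mannosidase, by 1.74 ± 0.11 (adjusted p = 0.000154). Of 39 autophagy genes 11 were higher (28.2%, against 26.1% of all genes) and 6 lower (15.4%, against 24.4%), with 8 to 15 higher and 3 to 11 (11 without CID 3528206 replicate 1, 3 without DMSO replicate 1, 3 without DMSO replicate 2) lower without 1 array in turn. RPN4, the activator of proteasome genes, rose by 0.92 ± 0.09 (adjusted p = 0.000583) while 9 of 42 proteasome genes were lower (21.4%) and 3 higher (7.14%). The number lower was 0 to 19 (19 without CID 3528206 replicate 2, 0 without DMSO replicate 1, 0 without DMSO replicate 2) without 1 array in turn. HAC1, the activator of the unfolded protein response, was not called (0.27 ± 0.10, adjusted p = 0.0643; 0.00305 without CID 3528206 replicate 1), and 3 of 32 genes of that response were higher (9.38%) and 10 lower (31.2%). Leaving out 1 array gave 2 to 8 (8 without CID 3528206 replicate 2) higher and 4 to 11 (6 without DMSO replicate 1, 4 without DMSO replicate 2) lower. YAP1, the activator of the oxidative stress response, rose by 0.58 ± 0.07 (adjusted p = 0.00106).

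Several of the largest differences lie in genes with little known function. EGO4 had 8.41 and 8 after CID 3528206, against 11.91 and 11.78 with DMSO, and fell 12.4-fold (adjusted p = 3.00e-05). RGI1, a gene induced in respiratory growth, had 11.05 and 10.75 after CID 3528206 and 13.52 and 13.52 with DMSO, and fell by 2.62 ± 0.11 (adjusted p = 3.85e-05). YOL014W and YDL241W, open reading frames without a standard name, fell by 2.97 ± 0.13 and 2.59 ± 0.10 (adjusted p = 3.85e-05 and 3.00e-05). MGA1, which resembles heat shock factors, RTC3, YJL047C-A and HPF1, a wall mannoprotein, complete the 15 largest falls, with differences between -2.20 and -2.02. On the other side VBA3, a vacuolar amino acid permease read with a probe set that can bind its paralogue, rose by 3.81 ± 0.08 (adjusted p = 4.46e-06) from DMSO levels near background, and YOR338W and MOH1 rose by 2.86 ± 0.17 and 2.84 ± 0.06 (adjusted p = 0.000105 and 4.46e-06).

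**Figure D4:**
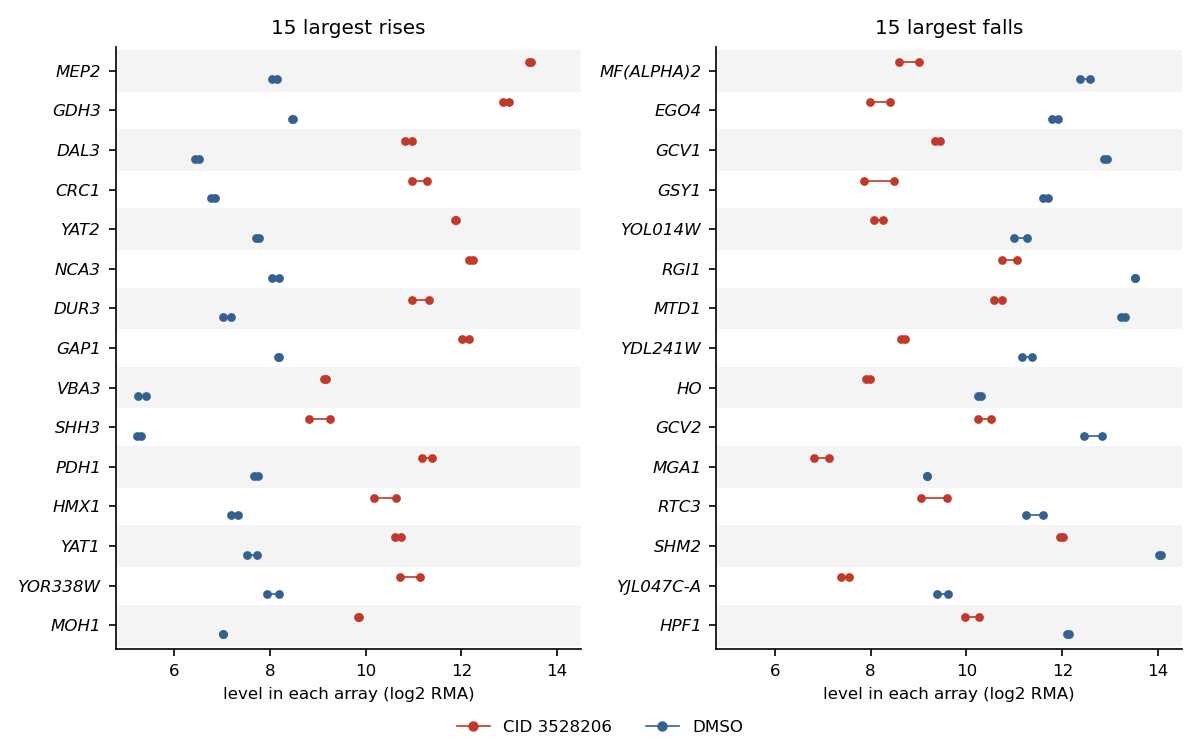
Log2 level in each array (horizontal axis) of the 15 genes with the largest rises (left) and the 15 with the largest falls (right) after CID 3528206, with joined points for the 2 arrays of a group, red for CID 3528206 and blue for DMSO. The groups lie apart in all 30 genes, by most in MEP2 (5.34) and MF(ALPHA)2 (-3.67).

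The arrays of CID 3528206 and rapamycin were then compared directly, because both treatments share the same DMSO arrays and their differences from DMSO are not independent. At the concentrations used, which are not matched in any unit of effect, 1022 genes were called between them (18.8%), with 508 higher (9.32%) and 514 lower (9.43%) after CID 3528206. The number was 105 or 96 without rapamycin replicate 1 or 2 and was 1300 or 2646 without CID 3528206 replicate 1 or 2, so it is known only roughly. Of the 273 genes that rose at least 2-fold after CID 3528206, 74 were lower and 41 were higher than after rapamycin. The rest did not pass the test, which does not show that the treatments act alike.

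Most nitrogen genes were lower after CID 3528206 than after rapamycin. DAL80 had 7.58 and 8.02 after CID 3528206 and 9.96 and 10.02 after rapamycin, the largest difference of this kind (-2.19 ± 0.16, adjusted p = 0.00259). GAP1 had 12.16 and 12 after CID 3528206, against 13.31 and 13.25 after rapamycin (-1.20 ± 0.08, adjusted p = 0.00256). DAL5 had 11.21 and 10.90 after CID 3528206, against 12.43 and 12.48 after rapamycin (-1.40 ± 0.11, adjusted p = 0.00259). All of these lay between the DMSO and the rapamycin levels. Of the 29 genes 17 were lower (58.6%, against 9.43% of all genes) and 4 higher (13.8%, against 9.32%) after CID 3528206 than after rapamycin, with a median of -0.44, and leaving out 1 array in turn gave 6 to 19 (6 without rapamycin replicate 1, 6 without rapamycin replicate 2) lower. MEP2 differed less, at 13.46 and 13.40 after CID 3528206 and 13.78 and 13.76 after rapamycin (-0.34 ± 0.07, adjusted p = 0.0263), and its call was lost without rapamycin replicate 1 (0.166) or 2 (0.170).

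Many acetate, stress and respiratory genes were lower after CID 3528206 than after rapamycin. Of the 25 glyoxylate and gluconeogenic genes 13 were lower (52.0%, against 9.43% of all genes) and none higher, and without 1 array in turn 7 to 14 (7 without rapamycin replicate 1, 7 without rapamycin replicate 2) were lower. JEN1 had 9.06 and 9.16 after CID 3528206 and 10.72 and 10.56 after rapamycin (-1.53 ± 0.10, adjusted p = 0.00256). In the general stress response 34 of 71 were lower (47.9%) and 1 higher, with a median of -0.44 and a range of 7 to 44 (11 without rapamycin replicate 1, 7 without rapamycin replicate 2) lower without 1 array in turn. In the respiratory chain and ATP synthase 21 of 43 were lower (48.8%) and none higher, with a range of 0 to 35 (35 without CID 3528206 replicate 2, 0 without rapamycin replicate 1, 0 without rapamycin replicate 2) lower. HSP12 had 10.43 and 10.98 after CID 3528206, against 12.44 and 12.78 after rapamycin (-1.91 ± 0.22, adjusted p = 0.00550; 0.0517 without rapamycin replicate 2). Glucose transporters differed as well: HXT7 had 10.55 and 10.53 after CID 3528206 and 12.44 and 12.41 after rapamycin (-1.88 ± 0.07, adjusted p = 0.000556), and HXT4 had 11.45 and 11.51 after CID 3528206 and 13.03 and 13.08 after rapamycin (-1.57 ± 0.07, adjusted p = 0.000856). In both the CID 3528206 arrays lay lowest of the 3 groups. RGI2, a paralogue of RGI1, TMA10, ISF1, YKR075C, YNL194C and the succinate-fumarate carrier SFC1 complete the 10 largest differences in this direction, between -2.06 and -1.60. The calls for YKR075C (0.0714 and 0.0832), YNL194C (0.0527 and 0.0584) and SFC1 (0.0951 and 0.109) were lost without rapamycin replicate 1 or 2.

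Some genes of other groups were higher after CID 3528206 than after rapamycin. Of 128 cytosolic ribosomal protein genes 36 were higher (28.1%, against 9.32% of all genes) and none lower, with a median of 0.20, but 1 to 64 (64 without CID 3528206 replicate 1, 2 without rapamycin replicate 1, 1 without rapamycin replicate 2) were higher when 1 array was left out in turn. Of 28 genes of the multidrug regulon list, which holds more than efflux pumps, 9 were higher (32.1%) and none lower, with a median of 0.32. This count also changed when 1 array was left out. Of 33 iron genes 11 were higher (33.3%) and none lower, and both of these counts changed when 1 array was left out in turn. PDR10 had 12.05 and 11.77 after CID 3528206, against 10.82 and 10.81 after rapamycin (1.09 ± 0.10, adjusted p = 0.00352). PDR5 had 12.79 and 12.62 after CID 3528206 and 11.99 and 12 after rapamycin (0.71 ± 0.08, adjusted p = 0.00576). This call was lost without rapamycin replicate 1 (0.0617) or 2 (0.0653), and PDR5 was not called against DMSO.

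RSB1, a membrane protein that moves sphingoid bases, led the genes higher after CID 3528206, at 8.87 and 8.54 after CID 3528206 and 6.94 and 7.03 after rapamycin (1.72 ± 0.12, adjusted p = 0.00259), with 8.89 and 8.75 in the DMSO arrays. ARE2, the main sterol acyltransferase, had 9.92 and 9.99 after CID 3528206, against 8.59 and 8.57 after rapamycin (1.37 ± 0.09, adjusted p = 0.00259). Against DMSO neither was called (-0.12 ± 0.12 and -0.01 ± 0.09, adjusted p = 0.449 and 0.942), but RSB1 was called lower without CID 3528206 replicate 1 (0.0331). IML2, a factor for clearing protein inclusion bodies, had 12.07 and 11.75 after CID 3528206, 10.26 and 10.27 after rapamycin and 10.59 and 10.51 with DMSO, so it rose above both (1.65 ± 0.11 against rapamycin, adjusted p = 0.00259; 1.37 ± 0.11 against DMSO, adjusted p = 0.000342). YMR317W had 9.82 and 9.54 after CID 3528206, 8.34 and 7.91 after rapamycin and 7.33 and 7.28 with DMSO (1.56 ± 0.16 against rapamycin, adjusted p = 0.00432). YOL014W, FIT1, YML131W, YMR230W-A, the regulator gene HMS2 and EEB1, an enzyme that makes ethyl esters, complete the 10 largest differences in this direction, between 1.59 and 1.21.

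**Figure D5:**
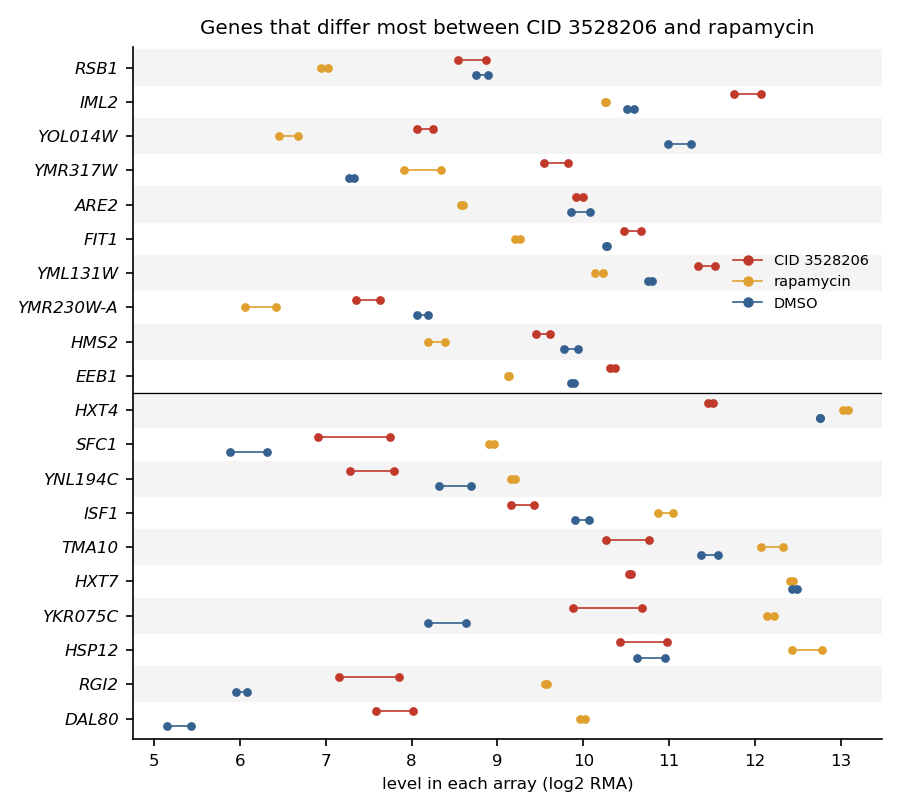
Log2 level in each array (horizontal axis) of the 10 genes highest (above the line) and the 10 lowest (below it) after CID 3528206 against rapamycin, with joined points for the 2 arrays of a group, red for CID 3528206, orange for rapamycin and blue for DMSO. At RSB1 and ARE2 the red points lie near the DMSO level and the orange ones below it, and at HXT7 and HXT4 the red points lie below both other groups.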

How the data were processed

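RNA from yeast cultures was hybridised to 6 Affymetrix arrays, and the deposited log2 values were made by the authors with RMA, per the submitters' processing notes. Not given in the sources used here are its software, version and settings. No further normalization was applied. Probe sets were named through the platform annotation, of which 12 symbols were updated through RefSeq (assembly R64, names only). Probe sets for S. pombe, controls and those naming no gene or several genes were left out. One limma (3.58.1, R 4.3.3) model with a mean for each of the 3 groups was fitted to 5449 genes and 6 arrays, with 3 residual degrees of freedom, and p-values were adjusted by Benjamini-Hochberg. With 2 arrays a group, their number limits the precision. The fit was tested on simulated data with known differences. Genes were named by rule: the 15 largest rises and 15 largest falls with arrays apart, up to 4 members of each list with the largest differences, all members of lists with at most 12, fixed regulators, and the 10 largest differences each way from rapamycin. Other genes are named as chosen after their values were seen; against rapamycin, GAP1, DAL5, MEP2, JEN1, PDR10 and PDR5 were also chosen so. The members and lists were chosen with earlier results of these data known. Lists were described by counts and medians, with no list test. Some genes are in several lists, such as CIT2 and PYC1 in those of the glyoxylate cycle and of the retrograde response. Lists that share genes are not separate observations. The 18 alternatives changed the threshold, the arrays, the scaling, the filter, the probe sets or the model.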

Additional observations from a re-analysis of the deposited data

Results flagged for a closer look

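Probe sets that name no gene were outside the tests. Of 3470 such probe sets, 25 differed at least 2-fold between CID 3528206 and DMSO with the arrays of the groups apart, 14 higher and 11 lower after CID 3528206. The largest read 14.07 and 14.10 after CID 3528206, 14.26 and 14.35 after rapamycin, and 10.33 and 10.37 with DMSO. No test was run on these probe sets, and what they measure is not known here. Of the 5449 tested genes, 385 (7.07%) were called and differed at least 2-fold, all with the arrays apart. That is a larger share than among the probe sets that name no gene.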

How the results depend on the processing

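The number of genes called between CID 3528206 and DMSO (2752) was 1706 at an adjusted p under 0.01 and 1553 to 3552 when 1 array at a time was left out. The number past 2-fold (385) was 224 without the third of genes lowest in mean level and 387 to 447 without 1 array. Between CID 3528206 and rapamycin, the number called (1022) was 214 at an adjusted p under 0.01, 96 to 2646 without 1 array, 397 from the 4 arrays alone, 528 with array weights and 1888 with the 3′ minus 5′ difference as a covariate; the cause was not tested. The labels give same-numbered arrays only a shared number. With the replicate number as a block, 3082 genes were called against DMSO, 388 of them past 2-fold, and 1510 against rapamycin; replicate differences correlated at 0.431 between CID 3528206 and DMSO, 0.317 between CID 3528206 and rapamycin, and 0.248 between rapamycin and DMSO. Of the 385 genes past 2-fold 70.9% were higher, against 63.0% after quantile normalization, under which the median of meiosis and sporulation genes was -0.03 in place of 0.16. No gene difference was run through all 18 alternatives. DMSO arrays were left out only for differences from DMSO, rapamycin arrays only for those from rapamycin, and filters dropped some genes. Of the 172 called gene differences named or used here, 150 kept direction and call in every alternative run on them. Another 22 lost the call in at least 1, and none of the 172 changed sign. Another 8, all uncalled differences from DMSO, changed sign. Without 1 array in turn their ranges were: APE1 (-0.15 to 0.12), ARE2 (-0.12 to 0.10), ATG8 (-0.30 to 0.0693), CLN3 (-0.34 to 0.12), HSP12 (-0.36 to 0.19), RSB1 (-0.28 to 0.0449), TOR1 (-0.0367 to 0.24) and URE2 (-0.26 to 0.0632). With the 3′ minus 5′ covariate the sign also changed in ARE2 (0.000637), ATG8 (0.0634), CLN3 (0.14), HSP12 (0.18), TOR1 (-0.0326), URE2 (0.0551). Of 100 list counts 34 stayed within 1.5 times in every alternative. DMSO signal below or near background limits HXT10, SUL1, POT1, POX1, DAL80, VBA3 and SHH3.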

Other observations

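Some groups that the comparison above leaves out held genes called in both directions, as did all genes (26.1% higher and 24.4% lower). Of 23 genes of the phosphate regulon 9 were higher (39.1%, against 26.1% of all genes) and 5 lower (21.7%, against 24.4%) after CID 3528206, with a median of 0.08 and with 6 to 10 higher without 1 array in turn. Of 25 genes of sphingolipid synthesis 5 were higher (20.0%) and 10 lower (40.0%), with a median of -0.16 and with 3 to 6 (3 without DMSO replicate 1, 3 without DMSO replicate 2) higher and 6 to 11 (6 without DMSO replicate 2) lower. Genes of meiosis and sporulation had 20 of 53 higher (37.7%) and 6 lower (11.3%), and without 1 array in turn 3 to 11 (11 without CID 3528206 replicate 2, 3 without DMSO replicate 2) were lower. The median of 0.16 for meiosis changed sign under quantile normalization (-0.03). Among 45 chaperone genes 11 were higher (24.4%) and 7 lower (15.6%), with 6 to 13 (7 without DMSO replicate 1, 6 without DMSO replicate 2) higher and 4 to 11 (11 without CID 3528206 replicate 1, 4 without DMSO replicate 1) lower. Among 19 aminoacyl-tRNA synthetase genes 1 was higher and 3 were lower, with 0 to 8 (8 without CID 3528206 replicate 2, 0 without DMSO replicate 1, 0 without DMSO replicate 2) higher. The number lower was 1 and 2 without CID 3528206 replicate 1 and 2, and 0 without either DMSO array.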
